A study of Mus musculus with 6 samples.

Results

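The Sprouty genes (Spry1, Spry2, Spry3 and Spry4), the Spred genes (Spred1, Spred2 and Spred3) and the PEA3 group of ETS transcription factor genes (Etv1, Etv4 and Etv5) were followed in mouse primary visual cortex (V1) after monocular deprivation. The 10 genes were taken by symbol from a table of 52636 genes, and all 10 were found and had enough reads to be tested. The genes were chosen by family, but with the contralateral over ipsilateral fold changes and adjusted p-values of the same 6 libraries known, so the differences and p-values given here describe them and are not independent support for anything.

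Growth factors such as FGF, EGF and BDNF activate receptor tyrosine kinases, which switch on Ras, Raf, MEK and, last, the kinase ERK. Sprouty and Spred proteins act back on this cascade: Sprouty proteins restrain it near the receptor and at Raf, and Spred proteins bring the Ras inactivator neurofibromin to the membrane. Etv1, Etv4 and Etv5 are transcription factors whose genes are switched on by ERK signalling, in part because ERK relieves repression by Capicua. In neurons ERK is one of the routes by which synaptic activity reaches the nucleus.

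The animals, at postnatal day 28, were wild-type mice of the C57BL/6J strain whose right eyelids had been sutured for 3 days. V1 contralateral to the sutured eye (left hemisphere, 3 libraries) and V1 ipsilateral to it (right hemisphere, 3 libraries) came from the same 3 mice. The contralateral hemisphere was the left one in each mouse, so deprivation and left or right side cannot be told apart. All 6 libraries are thus from deprived animals, the ipsilateral hemisphere is an internal comparison within each animal, and undeprived mice are not analysed here. A gene said below to have fallen or risen was lower or higher in contralateral than in ipsilateral V1. Which hemisphere had moved from an undeprived level cannot be told. Total RNA was sequenced in each library, and reads were counted over genes and over back-splice junctions of circular RNAs (circRNAs).

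Gene reads numbered 17849253 to 21818822 in contralateral and 20749614 to 32213500 in ipsilateral libraries. Markers of cortical layers 2/3, 4, 5 and 6, excitatory neurons and interneurons were all detected, which fits cortex but does not tell V1 from other cortical areas. Summed hippocampal and thalamic markers were at 62.6 to 69.0 CPM (gene reads scaled to library size with TMM factors) in contralateral and 65.7 to 75.5 CPM in ipsilateral libraries, below the summed layer 6 markers, although Prox1 and Neurod1 alone were as high as some single layer markers. The libraries stood apart in the reads of a mitochondrial ribosomal RNA gene, mt-Rnr1. It lay at 14.5 to 35.9 CPM in contralateral 1, ipsilateral 1 and ipsilateral 3, and at 2243 to 5801 CPM in contralateral 2, contralateral 3 and ipsilateral 2. Both libraries of mouse 1 are in the low set and both of mouse 2 in the high set, and only mouse 3 has its hemispheres in different sets. Fold changes within each set are therefore given beside the results, although 1 hemisphere then has a single library.

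Across the 10 genes, Etv5, Spry2 and Etv1 had the largest differences between hemispheres, each lower in contralateral V1 in 3 of 3 mice. In edgeR's quasi-likelihood test without a term for mouse, 0 of the 10 genes passed at an adjusted p under 0.05, against 0.127% of the 20473 genes tested. At an unadjusted p under 0.05 there were 3 (Spry2, Etv1 and Etv5), against 2.87% of all genes called as lower in that way, and in DESeq2 2 passed (Spry2 and Etv5), against 0.578% of genes as lower, 0.046% as higher and 0.624% in either direction. With the mouse as a block, which compares the hemispheres within each animal, Spry2, Etv1 and Etv5 passed as lower and 0 as higher, against 0.698% of all genes as lower and 0.195% as higher. At an unadjusted p under 0.05 in that fit 7 of the 10 were lower (all but Spry1, Spry3 and Etv4), against 6.94% of all genes. DESeq2 with the same block called the same 3 genes, against 1.40% of genes as lower.

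**Figure D1:**
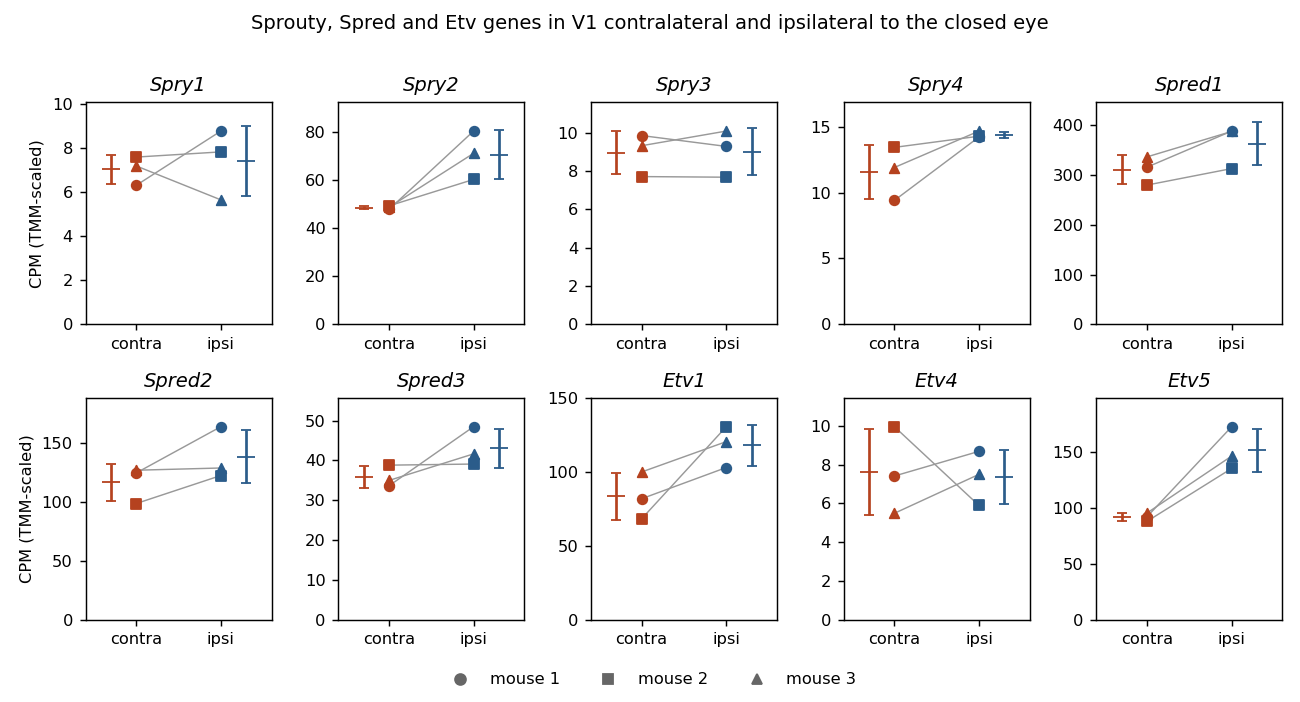
Level of each gene in CPM (linear axes starting at 0) in contralateral and ipsilateral V1, with 1 symbol per mouse, lines joining the hemispheres of a mouse, and the mean ± SD of 3 libraries beside the points. For Etv5, Spry2, Etv1, Spry4 and Spred3 each contralateral library lies below each ipsilateral one, while the groups overlap for the other 5 genes.

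Etv5 (ENSMUSG00000013089, chromosome 16, 22381309 to 22439719, minus strand, GRCm38) had 92.4, 88.3 and 95.7 CPM in contralateral V1 of mice 1 to 3, and 173, 136 and 147 CPM in ipsilateral V1. The contralateral libraries lay close together and below each ipsilateral library. Etv5 averaged 92.1 ± 3.73 CPM in contralateral and 151.8 ± 19.2 CPM in ipsilateral V1 (SD, n = 3 each), 1.65-fold lower in contralateral V1. Its log2 fold change was -0.72 (SE 0.12, edgeR adjusted p = 0.0558), just outside the threshold, with the 29th smallest p of all genes where 26 passed. With the mouse as a block Etv5 fell by 0.71 on the log2 scale (SE 0.10, edgeR adjusted p = 6.37e-04).

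The Etv5 difference was -0.90, -0.62 and -0.62 (log2) in mice 1, 2 and 3, so that the pair within the low mt-Rnr1 set, the pair within the high set and the mixed pair pointed the same way. It remained past the threshold in the blocked edgeR fit when both libraries of mouse 1, 2 or 3 were left out (adjusted p = 0.00115, 1.91e-04 and 3.50e-05). Such a fit leans on the dispersion shared across genes rather than on spread between the few mice left. Over the whole table these fits called 243, 225 and 262 genes, against 183 with all mice. Their p-values for Etv5 are therefore no measure of stability between mice. Within the low mt-Rnr1 libraries the fold change was -0.80 and within the high ones -0.56 (log2), and neither passed (edgeR adjusted p = 0.658 and 0.675). 

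Etv1 (ENSMUSG00000004151, chromosome 12, 38779380 to 38870484, plus strand), which also marks a class of layer 5 pyramidal neurons, had 81.8, 68.3 and 99.9 CPM in contralateral and 103, 131 and 120 CPM in ipsilateral libraries 1 to 3. The groups did not overlap, but contralateral 3 and ipsilateral 1 lay within a few CPM of each other. The means were 83.3 ± 15.9 CPM contralateral and 118 ± 13.96 CPM ipsilateral (SD, n = 3 each), and the log2 fold change was -0.50 (SE 0.15, edgeR adjusted p = 0.586).

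With the mouse as a block Etv1 fell by 0.51 (log2, SE 0.12, edgeR adjusted p = 0.0456), and mouse 2 carried much of it, with a difference of -0.93 against -0.33 in mouse 1 and -0.27 in mouse 3. Without mouse 2 the blocked value was -0.30 and no longer passed (edgeR adjusted p = 0.0936), whereas it passed without mouse 1 (0.00190) or mouse 3 (0.00160). As for Etv5, p-values from fits without a mouse do not measure the spread between mice. Within the low and the high mt-Rnr1 libraries the fold changes were -0.46 and -0.63 (log2). The summed level of 4 other layer 5 markers, Fezf2, Bcl11b, Parm1 and Tox2, was 125 to 173 CPM in contralateral and 164 to 178 CPM in ipsilateral libraries, with overlap, and 0 of the 4 passed in either edgeR fit. In mouse 2, which carried much of the Etv1 value, all 4 were lower in contralateral V1: Fezf2 was at 13.2 CPM contralateral and 24.0 CPM ipsilateral, and Parm1 at 46.8 CPM contralateral and 71.1 CPM ipsilateral. Bcl11b was there at 53.1 CPM contralateral and 67.2 CPM ipsilateral, and Tox2 at 11.7 CPM contralateral and 15.6 CPM ipsilateral. In mouse 3, Parm1 (69.8 CPM contralateral, 61.1 CPM ipsilateral) and Tox2 (15.5 and 11.3 CPM) were higher in contralateral V1. Fezf2 was there at 20.3 CPM in both hemispheres, and Bcl11b at 67.6 and 71.1 CPM. In mouse 1 the hemispheres were closer, with Bcl11b furthest apart (70.9 and 77.2 CPM). Markers outside layer 5 also differed in mouse 2, given here as contralateral and ipsilateral CPM. Of the excitatory neuron markers, Tbr1 (125 and 188), Slc17a7 (662 and 897) and Neurod6 (20.56 and 41.05) were lower in contralateral V1. Camk2a was higher (3606 and 3136). Of the layer 2/3 markers, Lamp5 (93.3 and 151), Calb1 (109 and 166) and Rasgrf2 (235 and 268) were lower, and Cux2 was higher (296 and 278). Whether the cell makeup of the dissected tissue has a part in the Etv1 value was not tested, and in bulk tissue fewer cells of a type and less RNA per cell cannot be told apart.

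Etv4 (ENSMUSG00000017724, chromosome 11, 101769742 to 101785371, minus strand), the remaining PEA3 gene, was among the least read of the 10, at 7.42, 9.96 and 5.49 CPM in contralateral and 8.69, 5.90 and 7.50 CPM in ipsilateral libraries. The groups overlapped, and the contralateral library was the lower of the pair in 2 of 3 mice. The log2 fold change was 0.05 (SE 0.24, edgeR adjusted p = 0.978), and no difference was detectable at 119 to 186 reads a library. In rodent hippocampal neurons in culture BDNF is known to switch on both Etv4 and Etv5. Whether Etv4 and Etv5 differed in their change was not tested.

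Spry2 (ENSMUSG00000022114, chromosome 14, 105891949 to 105896819, minus strand, with the bounds of the deposited table), a broadly expressed Sprouty, had 47.8, 49.3 and 48.7 CPM in contralateral and 80.5, 60.3 and 71.2 CPM in ipsilateral libraries 1 to 3. The 3 contralateral values were nearly equal and all lay below the ipsilateral ones. Means were 48.6 ± 0.750 CPM contralateral and 70.7 ± 10.1 CPM ipsilateral (SD, n = 3 each), 1.45-fold lower in contralateral V1, with a log2 fold change of -0.54 (SE 0.13, edgeR adjusted p = 0.306). With the mouse as a block Spry2 fell by 0.53 (log2, SE 0.10, edgeR adjusted p = 0.0146).

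By mouse the Spry2 difference was -0.75, -0.29 and -0.55 (log2). The blocked call was lost without mouse 1 (-0.45, edgeR adjusted p = 0.0689) and was made without mouse 2 (0.00105) or mouse 3 (0.0233). These p-values carry the same limit as those of Etv5 without a mouse. Within the low and the high mt-Rnr1 libraries the fold changes were -0.67 and -0.30 (log2), so the value in the low set was over 1.5 times that in the high set.

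The promoter windows of the genes were searched for letters bound by factors downstream of ERK, because several of them were lower together. RefSeq windows on GRCm38.p6 (250 bases before to 50 after a gene start) were at hand for 7 of the 10 genes, in 9 windows, and both strands were searched. Spry3, Spry4 and Etv4 had no window to search. Capicua octamers (TGAATGAA, TGAATGGA, TCAATGAA or TCAATGGA) lay in 2 of the 9 windows, those of Spry2 and Spred3, against 3.84% of all 32851 windows. With so few windows an excess was not tested. The ETS core CCGGAA lay in 1 of the 9, that of Spry2, against 14.9% of all windows. AP-1 (TGANTCA), CRE (TGACGTCA) and CArG box letters were in 0 of the 9, against 7.81%, 1.79% and 1.63% of all windows. The 250 bases before the 2 starts that hold an octamer are shown with the octamer in capitals, since Capicua is the repressor that ERK is known to relieve:
Spry2 (chr14:105896820-105897069, minus strand): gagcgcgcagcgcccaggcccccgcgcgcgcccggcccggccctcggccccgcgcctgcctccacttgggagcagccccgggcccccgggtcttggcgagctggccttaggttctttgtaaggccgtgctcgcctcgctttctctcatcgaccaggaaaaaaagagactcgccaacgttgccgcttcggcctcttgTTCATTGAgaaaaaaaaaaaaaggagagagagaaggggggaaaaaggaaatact
Spred3 (chr7:29168648-29168897, minus strand): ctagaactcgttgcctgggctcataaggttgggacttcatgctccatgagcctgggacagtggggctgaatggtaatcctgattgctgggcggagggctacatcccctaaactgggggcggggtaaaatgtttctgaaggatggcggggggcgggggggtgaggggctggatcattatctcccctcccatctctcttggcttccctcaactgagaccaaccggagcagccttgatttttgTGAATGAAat

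In Spry2 the octamer starts at position -54 from the gene start and reads TCAATGAA on the other strand, and in Spred3 it starts at -10 on the printed strand. The Spred3 window lies within the gene bounds of GENCODE M21, downstream of the start listed there. The Etv5 and Etv1 windows, 2 for each gene, held none of the 5 motifs. A match of letters is a description of the window and says nothing of binding in these cells.

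Spry4 (ENSMUSG00000024427), a Sprouty known as a direct ERK target, had 9.41, 13.4 and 11.9 CPM in contralateral and 14.2, 14.3 and 14.7 CPM in ipsilateral libraries. The ipsilateral libraries were nearly equal, and contralateral 1 was the lowest. The log2 fold change was -0.31 (SE 0.17, edgeR adjusted p = 0.824), or -0.32 in the blocked fit (SE 0.14, edgeR adjusted p = 0.331). It lay at -0.60, -0.09 and -0.30 in mice 1 to 3, at -0.63 within the low mt-Rnr1 libraries and at -0.18 within the high ones.

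Spry1 and Spry3 showed no difference larger than the spread between libraries. Spry1 (ENSMUSG00000037211, chromosome 3, 37639947 to 37644598, plus strand) ranged from 6.32 to 7.60 CPM in contralateral and from 5.66 to 8.79 CPM in ipsilateral libraries, with a log2 fold change of -0.08 (SE 0.21, edgeR adjusted p = 0.963). Spry3 (ENSMUSG00000061654), whose gene lies on an unplaced scaffold in this build, ranged from 7.71 to 9.85 CPM in contralateral and from 7.68 to 10.1 CPM in ipsilateral libraries, with a log2 fold change of -0.01 (SE 0.18, edgeR adjusted p = 0.998). These 2 genes had 127 to 246 reads a library, which limits the precision.

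The 3 Spred genes had small differences of similar size, and none passed. Spred1 (ENSMUSG00000027351, chromosome 2, 117121374 to 117182279, plus strand), the Spred mutated in the human Legius syndrome, had 316, 280 and 337 CPM in contralateral and 389, 313 and 388 CPM in ipsilateral libraries, with overlap between the groups. Spred2 (ENSMUSG00000045671, chromosome 11, 19924375 to 20024026, plus strand), another inhibitor of Ras and ERK signalling, had 125, 98.8 and 127 CPM in contralateral and 164, 123 and 129 CPM in ipsilateral libraries, again with overlap. Spred3 (ENSMUSG00000037239, chromosome 7, 29158829 to 29170411, minus strand) had 33.6, 38.8 and 35.0 CPM in contralateral and 48.5, 39.1 and 41.7 CPM in ipsilateral libraries, which did not overlap, although in mouse 2 the values were nearly equal.

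The log2 fold changes were -0.22 for Spred1 (SE 0.14), -0.24 for Spred2 (SE 0.15) and -0.27 for Spred3 (SE 0.13), with edgeR adjusted p from 0.815 for Spred3 to 0.830 for both others. With the mouse as a block their adjusted p lay between 0.300 and 0.374. Each was lower in contralateral V1 in 3 of 3 mice, with differences of -0.16 to -0.30 for Spred1, -0.02 to -0.39 for Spred2 and -0.01 to -0.53 for Spred3. Within the high mt-Rnr1 libraries the 3 fold changes shrank to -0.02, -0.12 and -0.09 (log2), against -0.30, -0.24 and -0.43 within the low ones.

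**Figure D2:**
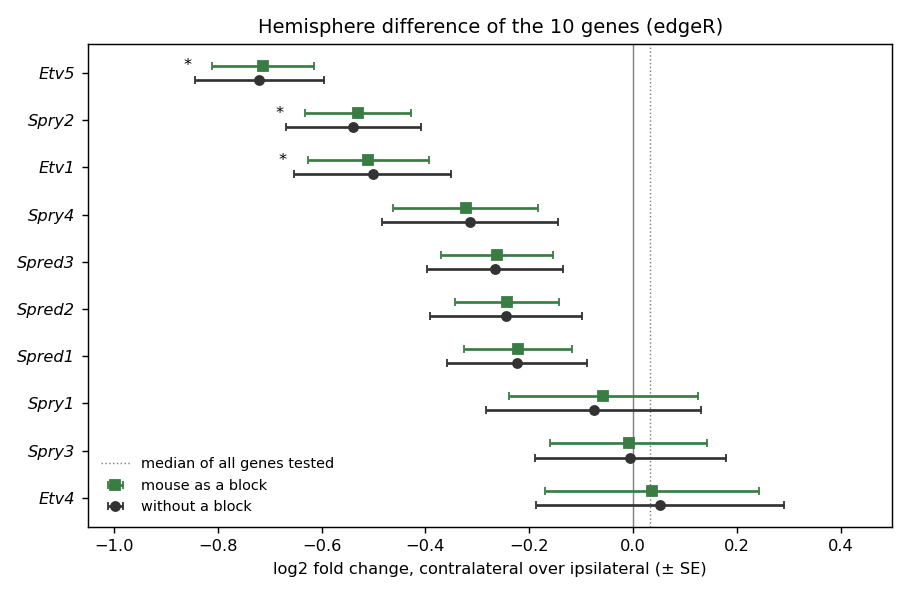
Log2 fold change of each gene, contralateral over ipsilateral, with its SE, from the edgeR fit without a block (circles) and with the mouse as a block (squares), and the median of all genes tested as a dotted line at 0.03. Asterisks mark an adjusted p under 0.05 in the blocked fit, which Etv5 (-0.71), Spry2 (-0.53) and Etv1 (-0.51) reached.

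Over the 10 genes the median log2 fold change was -0.26, against 0.03 over all genes tested, and 9 of the 10 lay below 0, against 44.6% of all genes. The groups did not overlap, with contralateral lower, for 5 of the 10 (Spry2, Spry4, Spred3, Etv1 and Etv5), against 6.29% of all genes, and with contralateral higher for 0, against 6.70%. The difference was negative in each of 3 mice for 7 of the 10, all but Spry1, Spry3 and Etv4, against 17.3% of all genes. The 3 genes left out of the 7 were also the 3 at the lowest level per length. By family the median was -0.19 for Sprouty, -0.24 for Spred and -0.50 for the Etv genes (log2), and differences between the families were not tested.

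Levels of different genes were compared per kilobase of the exon length listed in the gene table. Spred1 was the most abundant, at 45.9 ± 4.24 CPM per kb in contralateral and 53.6 ± 6.39 CPM per kb in ipsilateral V1 (SD, n = 3 each). Etv5, Spry2 and Spred2 followed, with contralateral means of 22.5, 23.3 and 25.3 CPM per kb and ipsilateral means of 37.0, 33.9 and 30.0 CPM per kb. Over the 6 libraries the ranges of each pair of neighbours among these 4 genes overlapped.

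A gap then separated Spred2, at no less than 21.4 CPM per kb in any library, from Etv1, at no more than 9.82 CPM per kb. Etv1 and Spred3 overlapped, at means of 6.27 and 5.76 CPM per kb in contralateral and 8.87 and 6.93 CPM per kb in ipsilateral V1. Another gap lay between Spred3, at 5.41 CPM per kb or more, and Spry4, at 3.20 CPM per kb or less. Spry4, Spry1, Etv4 and Spry3 then lay between 1.77 and 3.21 CPM per kb in all libraries, each overlapping its neighbour. Among Etv5, Spry2 and Spred2 the order differed by hemisphere, with Spred2 highest in contralateral and Etv5 highest in ipsilateral V1. In mean level per kb over the 6 libraries Spred1 stood above 97.2% of all tested genes, Etv5, Spry2 and Spred2 above 93.7%, 93.4% and 93.1%, and Spry3 above 39.8%.

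**Figure D3:**
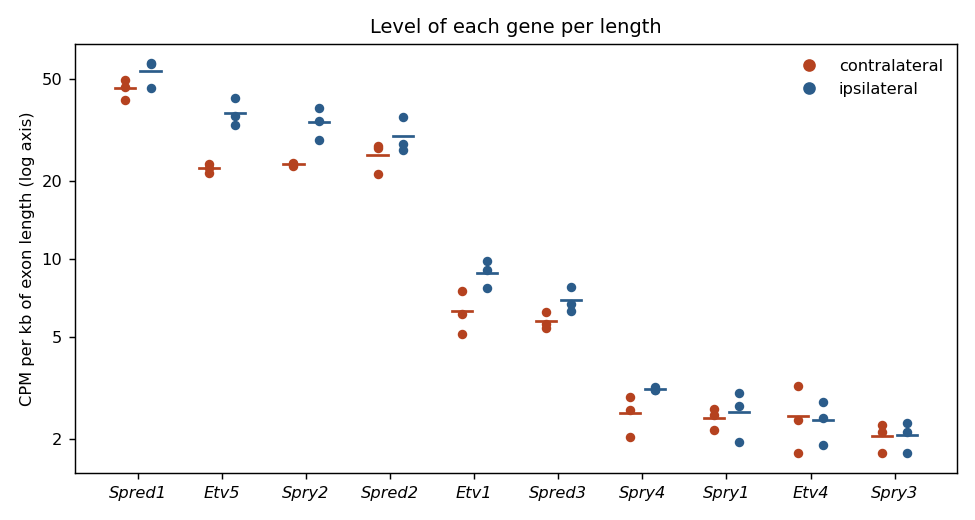
Level of each gene in CPM per kb of exon length (log axis) in each library, contralateral left of ipsilateral, with the mean of 3 libraries as a bar, ordered by mean level. The genes fall into a high set of 4 (Spred1, Etv5, Spry2 and Spred2), a middle pair (Etv1 and Spred3) and a low set of 4 between 1.77 and 3.21 CPM per kb.

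To see which genes had a profile most like theirs, centred log2 CPM values over the 6 libraries were compared by their root mean square difference with 13578 other genes of at least 1 CPM on average. Spry2 and Etv5 shared the same nearest gene, Dnajb5, a heat shock protein 40 family member (root mean square difference 0.05 for Spry2 and 0.07 for Etv5, log2), and the same next one, Vip (0.07 and 0.08), the peptide of a class of interneurons. Dnajb5 had 101, 100.3 and 105 CPM in contralateral and 176, 136 and 146 CPM in ipsilateral libraries 1 to 3, and Vip had 19.3 CPM in each contralateral library and 31.9, 27.0 and 30.2 CPM in ipsilateral ones. The third places went to Adamts8 for Spry2 and Rasd1 for Etv5.

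Spry2 and Etv5 were also near to each other, at 0.11 (log2). Only 14 of the 13578 other genes were nearer to Spry2 than Etv5 was, and 8 were nearer to Etv5 than Spry2 was. Etv1 was 0.27 from Spry2 and 0.26 from Etv5, with 2953 and 553 other genes nearer to Spry2 and to Etv5 than it. These distances hold the hemisphere difference itself, so they describe the profiles and carry no test.

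The other genes of the pathway, 167 symbols in 8 lists by role, of which 156 were tested, placed the feedback genes among their neighbours. Mkl1, Mkl2 and Rfwd2 are older symbols that matched no row, so they went untested whatever their reads. Rfwd2 is an older name of Cop1, which was also listed and was tested. The lists were chosen with earlier results of these data known, so counts over them, here and by role below, are not independent support for anything. In edgeR without the block 5 of the 156 passed as lower and 0 as higher, against 0.127% of all genes. With the mouse as a block 11 fell and 0 rose, against 0.698% and 0.195% of all genes. Without contralateral 2 the 5 calls were 0, without ipsilateral 2 they were 2, and without ipsilateral 3 they were 3. The median over the 156 was -0.06 (log2), against 0.03 for all genes tested.

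Among 20 tested feedback inhibitors and ERK output genes outside the Sprouty, Spred and Etv families, 3 fell in both fits, all of them phosphatases that act on ERK. Dusp6 had 41.7 ± 8.97 CPM in contralateral and 104 ± 11.9 CPM in ipsilateral V1 (SD, n = 3 each; log2 fold change -1.32, SE 0.16, edgeR adjusted p = 0.00603). Dusp4 had 6.04 ± 0.713 CPM in contralateral and 14.1 ± 2.05 CPM in ipsilateral V1 (-1.22, SE 0.18, edgeR adjusted p = 0.0233), and Dusp5 had 6.03 ± 1.02 and 13.3 ± 0.968 CPM in contralateral and ipsilateral V1 (-1.14, SE 0.18, edgeR adjusted p = 0.0340). With the block, 2 more fell: Trib1, a pseudokinase that recruits the ubiquitin ligase COP1 (-1.06, edgeR adjusted p = 5.24e-05), and Arl4c (-0.45, 0.0293). The list median was -0.21, and Il17rd, which encodes the feedback inhibitor Sef (0.30, edgeR adjusted p = 0.826), Errfi1 (-0.27, 0.826), Myc (-0.06, 0.974) and Ccnd1 (-0.09, 0.944) did not pass, and these 4 were picked with their values known.

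Of 24 tested genes listed as ligands and secreted regulators 2 fell without and 4 with the block. That list also holds Fgf12, Fgf13 and Fgf14, FGF family genes whose proteins act within the cell rather than as secreted ligands. Bdnf, the ligand of TrkB, and Adcyap1, which encodes the peptide PACAP, had log2 fold changes of -1.52 (edgeR adjusted p = 0.00373) and -1.07 (0.0475) without the block. Vgf, a secreted neuropeptide precursor induced by neurotrophins, and Igf1 passed only with it (-0.84, edgeR adjusted p = 9.28e-04, and -0.61, 0.0494). No FGF or EGF family gene of the list passed, and the list median was -0.02.

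The machinery between receptor and nucleus gave fewer calls. None of 23 receptor tyrosine kinases passed (median -0.08), with Kit at the smallest p (-0.42, edgeR adjusted p = 0.547, or 0.0514 with the block), and none of 21 Ras cycle genes did (median -0.06), with Rasgrp1, a Ras activator, at the smallest p (-0.43, edgeR adjusted p = 0.776). Of 17 adaptors 1 fell with the block, Irs2 (-0.50, edgeR adjusted p = 0.0305). Of 19 Raf, MEK and ERK kinases and their downstream kinases 1 fell with the block, Rps6ka3, which encodes the ERK-activated kinase RSK2 (-0.44, edgeR adjusted p = 0.0257), and the list median was 0.10. None of 15 other ETS and SRF factors passed (median -0.06, Elk1 at 0.33 with edgeR adjusted p = 0.771), nor any of 17 partners of Sprouty and Spred proteins and genes of the Capicua axis (median -0.13, the phosphatase subunit gene Ppp2ca at -0.37 with edgeR adjusted p = 0.762).

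**Figure D4:**
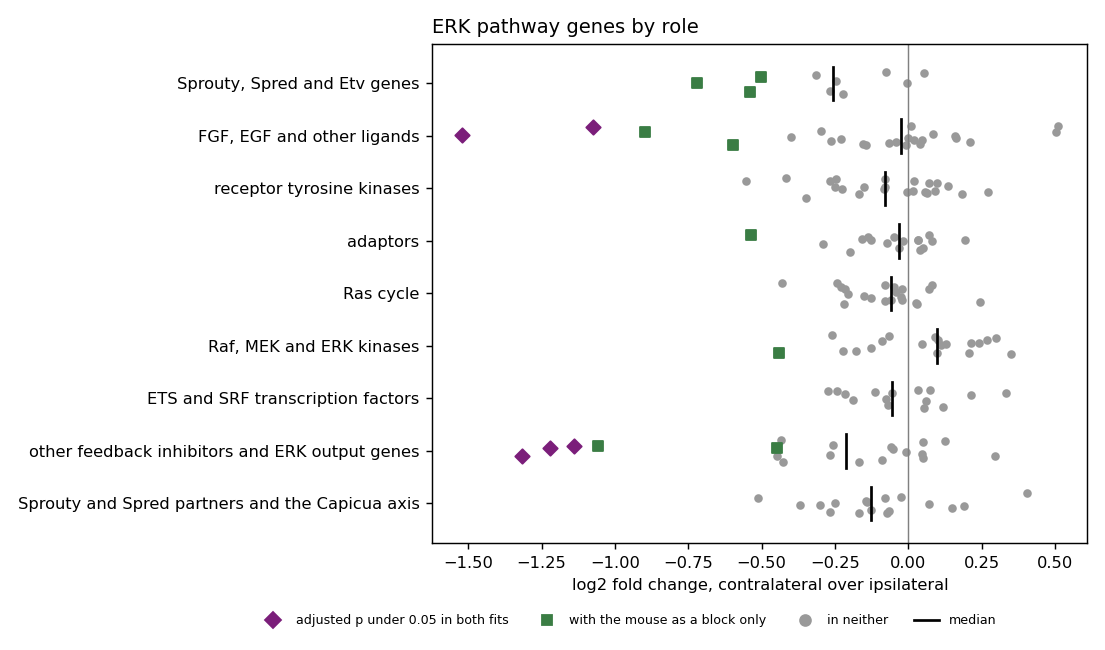
Log2 fold change, contralateral over ipsilateral, of each tested gene of the ERK pathway by role, with the median of each list as a black bar. Diamonds passed an adjusted p under 0.05 in both edgeR fits (Bdnf, Adcyap1, Dusp4, Dusp5 and Dusp6), squares with the mouse as a block only, and grey points in neither.

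Markers of cell types were set beside these genes, although bulk tissue does not show which cell types express them. The summed level of 6 interneuron markers, Gad1, Gad2, Slc32a1, Sst, Pvalb and Vip, was 279 to 337 CPM in contralateral and 413 to 490 CPM in ipsilateral libraries, without overlap. In edgeR 0 of the 6 passed without the block and 3 (Gad1, Gad2 and Vip) fell with it, against 0.698% of all genes. Slc32a1, Sst and Pvalb did not pass with the block (edgeR adjusted p = 0.0664, 0.286 and 0.218), and Sst in ipsilateral 3, at 16.7 CPM, lay below each contralateral library. Layer 6 markers were at 122 to 126 CPM in contralateral and 137 to 155 CPM in ipsilateral libraries, and 0 of 4 passed without and 1 (Tle4) fell with the block. Layer 2/3 markers overlapped, at 733 to 934 CPM in contralateral and 862 to 982 CPM in ipsilateral libraries, and 0 of 4 passed without and 1 (Lamp5, -0.46, edgeR adjusted p = 0.0329) fell with the block. Summed oligodendrocyte markers were lower in contralateral V1 in 3 of 3 mice, at 2889 to 4850 CPM in contralateral and 4090 to 4956 CPM in ipsilateral libraries, with overlap and 0 of 5 passing in either fit. The part of these lists in the Sprouty, Spred and Etv values was not tested. Astrocyte markers overlapped, at 1162 to 1520 CPM in contralateral and 1166 to 1371 CPM in ipsilateral libraries, as did those of oligodendrocyte precursors (252 to 363 and 255 to 342 CPM in contralateral and ipsilateral libraries) and of endothelial and mural cells (290.2 to 394 and 290.0 to 344 CPM), and none of their genes passed in either fit. Summed markers of layer 4, excitatory neurons, microglia and meninges overlapped as well, and again none of their genes passed in either fit. Excitatory neuron markers were at 4191 to 4699 CPM in contralateral and 3499 to 4847 CPM in ipsilateral libraries, lower in contralateral V1 in 1 of 3 mice. Camk2a made up most of that sum and had a log2 fold change of 0.17. The other markers of the list, Slc17a7, Neurod6 and Tbr1, had -0.18, -0.33 and -0.33, and the list median was -0.26. Microglia markers were at 207 to 283 CPM in contralateral and 189 to 248 CPM in ipsilateral libraries, with a median log2 fold change of 0.15.

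Circular RNAs gave a second readout for 2 of the 10 genes. The circRNA table held 1488 back-spliced RNAs, of which 1 came from Spred1 and 1 from Spred2, both joining exons. The Spred1 circle (chromosome 2, 117152992 to 117172086, plus strand, GRCm38) joins the end of exon 5 to the start of exon 2 of the main transcript and spans 553 bases over 4 exons if no exon is skipped. The Spred2 circle (chromosome 11, 19998120 to 20008477, plus strand) joins the end of exon 4 to the start of exon 2, with 412 bases over 3 exons, or 493 bases over 4 exons in other isoforms. The junctions are shown because they are what the reads must cross to be counted, with 20 bases of the last exon in lower case and 20 bases of exon 2 in capitals, from GENCODE M21 transcripts (GRCm38):
Spred1 circle: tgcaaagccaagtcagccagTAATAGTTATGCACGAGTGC
Spred1 linear, exon 1 to exon 2: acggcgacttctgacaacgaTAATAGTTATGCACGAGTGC
Spred2 circle: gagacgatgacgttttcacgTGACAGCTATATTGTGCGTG
Spred2 linear, exon 1 to exon 2: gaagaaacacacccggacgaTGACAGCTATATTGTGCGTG

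The Spred2 circle had 16, 19 and 24 back-splice reads in contralateral and 10, 20 and 17 in ipsilateral libraries 1 to 3. Scaled to the back-splice reads of each library, these were 1165, 1094 and 1241 back-splice CPM in contralateral and 709, 769 and 945 back-splice CPM in ipsilateral libraries. On this scale the groups did not overlap and contralateral V1 was higher, while the raw reads overlapped. The share of all circRNAs that do the same was not computed, so the pattern may be an ordinary one. The log2 fold change was 0.52 (SE 0.45, edgeR adjusted p = 0.999). Per 1000 host gene reads the circle had 8.46 ± 1.97 reads in contralateral and 4.58 ± 1.33 reads in ipsilateral V1 (SD, n = 3 each), higher in contralateral V1 in 3 of 3 mice. The log2 difference of the circle to host ratio was 0.89 (SE 0.51, limma adjusted p = 0.986, or 0.909 blocked by mouse), so the change did not pass. Ratios were taken on raw reads, so a difference between libraries in the yield of back-splice reads enters the ratio of every circRNA. The share of all ratios higher in 3 of 3 mice was not computed.

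The Spred1 circle had 11, 15 and 12 back-splice reads in contralateral and 10, 34 and 7 in ipsilateral libraries, with ipsilateral 2 far above the other libraries. The log2 fold change was -0.12 (SE 0.49, edgeR adjusted p = 0.999), and the ratio to the host differed by 0.42 (log2, SE 0.63, limma adjusted p = 1.00). Of all circRNAs 0 of 1468 passed in edgeR with 52 at an unadjusted p under 0.05, and 0 of 1428 ratios passed in limma with 55 at an unadjusted p under 0.05. At 7 to 34 reads a library, changes of the size seen in the linear genes were not detectable.

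**Figure D5:**
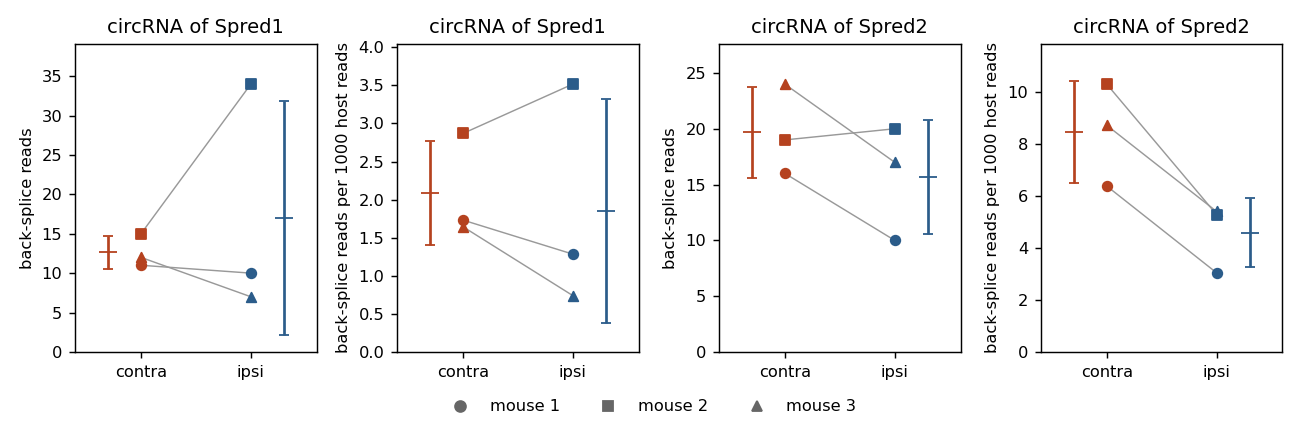
Back-splice reads (left of each pair of panels) and back-splice reads per 1000 host gene reads (right) of the Spred1 and Spred2 circRNAs in each library, with lines joining the hemispheres of a mouse and mean ± SD of 3 libraries. For Spred2 the ratio is higher in contralateral V1 in 3 of 3 mice, and for Spred1 the groups overlap. The share of all ratios higher in 3 of 3 mice was not computed.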

How the data were processed

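V1 of 3 mice gave 6 total RNA libraries (SMARTer Stranded kit, v2, per the labels' protocols), 3 contralateral and 3 ipsilateral. The authors deposited raw read counts per Ensembl gene and raw back-splice counts per circRNA, per the file headers, and normalized circRNA signal values, which equal the quantile-normalized counts for all 1488 circRNAs (compared to 3 decimals) and served as an alternative. HISAT2, featureCounts, limma and DESeq2 are listed, with the build GRCm38, per the submitters' processing notes. Strand setting and circRNA caller: not given in the sources used here, so genes with an antisense neighbour are uncertain: Spred3 (5353 reads) overlaps Ggn (157 reads), Spry1 (981) a predicted gene (41), and Spry4 (1782) 2 predicted genes (8 and 12).

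Symbols came from GENCODE M21 (52489 of 52636 IDs, 95.2% with the same bounds). Tests used R 4.3.3, edgeR 4.0.16 (TMM and filterByExpr, count minimum 10, total minimum 15), limma 3.58.1 and DESeq2 1.42.0. Benjamini-Hochberg adjustment covered all features tested in edgeR and limma, and the threshold was 0.05 throughout. In DESeq2 it covered the genes left by its own filtering, 15228 without the block and 13205 with it. The DESeq2 shares of genes refer to these. SE was derived from the fold change and the F statistic. CircRNAs needed 2 reads in 3 libraries, and ratios had 0.5 added to both counts before log2. Python 3.11.15 and matplotlib 3.10.9 drew figures. The edgeR and limma steps were tested on simulated data.

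The members, pathway lists and tests were chosen with earlier results of these data known. Named pathway genes are those called in either edgeR fit, up to 6 a list, or else the one of smallest p; Il17rd, Errfi1, Myc and Ccnd1 fall outside this rule and were chosen after their values were seen. Nearest profiles (log2 CPM with 2 reads added) were named for the 2 members of smallest p. Both libraries of a number come from the same mouse per the labels, so the samples are paired. Deviations from group means correlated at 0.42, 0.06 and 0.17 within mice 1 to 3, and at -0.29 to 0.18 between mice. No libraries were duplicates: at most 2.01% of counts of well-read genes were identical.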

Additional observations from a re-analysis of the deposited data

How the results depend on the processing

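Etv5, Spry2, Etv1, Spry4 and the 3 Spred genes kept a negative log2 fold change under all 19 alternatives, from -0.80 to -0.56 for Etv5, -0.67 to -0.30 for Spry2 and -0.65 to -0.30 for Etv1. Adjusted p ranged from 9.41e-08 to 0.981 for Etv5, 0.00105 to 1.00 for Spry2 and 0.00160 to 1.00 for Etv1. The number of the 10 genes called, 0 in edgeR without the block, was 3 with the mouse as a block (replicate block), 2 in DESeq2, 1 (Etv5) with no low-count filter, 3 in DESeq2 with the block, and, with the block, 2, 2 and 3 without mouse 1, 2 and 3. It was 0 without any single library. The block fits without a mouse and DESeq2 with the block were chosen after seeing the data.

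Over the whole table the count was 26, and 183 with the mouse as a block, 95 in DESeq2, 109 without a filter, 51, 0 and 16 without mouse 1, 2 and 3, 243, 225 and 262 in the blocked fits without them, 205 in DESeq2 with the block, and 0 to 31 without single libraries (0 without contralateral 2, with 799 genes at an unadjusted p under 0.05 in edgeR, and 16 without ipsilateral 2). The 5 pathway calls became 11 with the block, 8 without a filter, 0 and 2 without mouse 2 and 3, 8, 12 and 11 in blocked fits without mouse 1, 2 and 3, 12 in DESeq2 with the block, and 0 to 7 without single libraries (0 without contralateral 2, 2 without ipsilateral 2 and 3 without ipsilateral 3). The cause was not tested.

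Genes near 0 changed sign. Without single libraries Spry1 ranged from -0.24 to 0.02 (0.023 without ipsilateral 1), Spry3 from -0.11 to 0.09, Etv4 from -0.19 to 0.24, the Spred1 circle from -0.45 to 0.49 and its ratio from -0.067 to 1.02. Spry1 gave 0.10 without mouse 1 (0.12 with the block). Spry3 gave 0.091 without contralateral 2, 0.08 without ipsilateral 3, 0.054 without mouse 3 (0.046 with the block), and 0.016 and 0.15 within the low and high mt-Rnr1 libraries. Etv4 gave -0.19 without contralateral 2, -0.09 without ipsilateral 2, -0.33 without mouse 2 (-0.34 with the block), -0.13 within the low mt-Rnr1 libraries and -0.00199 in DESeq2 with the block. The Spred1 circle gave 0.02 without contralateral 3, 0.49 without ipsilateral 2 and 0.069 from the deposited normalized values, and its ratio -0.067 without ipsilateral 3. The circRNA and ratio counts were 0 under each alternative run. Of the 10 genes, Spry1, Spry3, Spry4 and Etv4 had the fewest reads, which limits what could be seen for them.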
